A study of Mus musculus with 6 samples.

Results

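The genes described here are the 27 cholesterol genes of a fixed list: 7 enzymes of the mevalonate route, 12 enzymes from squalene to cholesterol, 5 genes of SREBP control and 3 genes of sterol transport. They were taken by symbol from a table of 22219 genes, and all 27 were found and passed the filter on low values. The list does not hold every gene of the pathway. The RNA was that of whole testes of mice on day 10, in 6 libraries of bulk RNA-seq. In the 3 cKO libraries Eif5, a translation initiation factor gene, was conditionally knocked out in germ cells. The animals were bred from a floxed line, Eif5fl/fl, and a Stra8-Cre line, and the alleles of each library's animals are not stated. The 3 others are labelled Control, with no genotype, so an effect of the floxed alleles or of Cre cannot be told apart from that of the deletion. The Cre is named for the promoter of Stra8, a germ cell gene, while the libraries hold the somatic cells of the organ as well. No label names the animals behind the libraries, so p-values reflect the spread between these samples only, which may be technical.

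Cholesterol is made from acetyl-CoA through mevalonate and farnesyl diphosphate, the branch point to other isoprenoids, and then through squalene, lanosterol and a chain of sterol intermediates. SREBP transcription factors are held in the endoplasmic reticulum with their escort SCAP, and INSIG proteins retain them there when sterols are plentiful. When sterols run low the SREBPs are moved to the Golgi, cut, and enter the nucleus, where they switch on the enzymes of the pathway and INSIG1 itself. In the testis cholesterol is the substrate of steroid hormones in Leydig cells, and a precursor sterol of the same chain builds up in the gonad as meiosis-activating sterol.

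The promoters of these genes can be compared by their letters. RefSeq promoter sequences (GRCm38.p6) were matched for 22 of the 27 genes, with 30 start sites, and the 250 bases before each start were searched on both strands. CCAAT, the letters bound by NF-Y, a partner of SREBP at its target genes, stood in the promoters of 20 of 22 genes (90.9%). Over all 27025 genes with a RefSeq promoter the share was 37.5%. Those genes were not limited to the genes tested for expression, here or in the shares that follow. GGGCGG, the GC box, stood in 21 of 22 (95.5%), against 35.4%. The member promoters averaged 61.4% G and C and all start sites 53.2%, and the part of base composition in these shares was not tested. TCACNCCA, a core of the sterol regulatory element, stood in 3 of 22 (Hmgcs1, Msmo1 and Srebf2; 13.6%), against 4.20%. CACGTG, an E-box, stood in 5 of 22 (22.7%), against 6.86%. CCAAT can begin in the last letters of TCACNCCA, and a match is a description of these letters, not a site. The promoters below are those of Hmgcs1, the enzyme gene with the most reads and one of the 3 with the sterol element, of Idi1, whose groups did not overlap, and of Lss and Ebp, the enzyme genes that passed the test. Capitals mark CCAAT on either strand (as ATTGG when it is on the other strand) and TCACNCCA, and each run is written 5′ to 3′ on the strand of the gene.
Hmgcs1 (chr13:119690101-119690350, plus strand): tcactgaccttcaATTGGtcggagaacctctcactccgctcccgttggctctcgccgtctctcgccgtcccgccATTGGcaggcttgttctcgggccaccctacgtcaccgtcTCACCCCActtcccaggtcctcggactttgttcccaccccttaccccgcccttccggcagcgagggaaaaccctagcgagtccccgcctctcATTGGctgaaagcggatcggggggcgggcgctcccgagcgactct
Idi1 (chr13:8885356-8885605, plus strand): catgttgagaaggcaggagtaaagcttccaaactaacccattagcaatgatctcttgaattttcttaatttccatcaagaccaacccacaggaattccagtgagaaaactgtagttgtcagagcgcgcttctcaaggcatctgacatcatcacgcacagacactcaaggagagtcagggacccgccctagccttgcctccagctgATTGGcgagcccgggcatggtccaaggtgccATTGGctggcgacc
Lss (chr10:76531355-76531604, plus strand): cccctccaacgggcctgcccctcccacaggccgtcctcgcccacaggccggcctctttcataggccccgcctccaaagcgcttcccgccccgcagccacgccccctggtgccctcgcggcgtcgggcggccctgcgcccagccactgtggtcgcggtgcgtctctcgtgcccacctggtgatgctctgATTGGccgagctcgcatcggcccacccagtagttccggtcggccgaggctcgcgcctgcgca
Ebp (chrX:8193513-8193762, minus strand): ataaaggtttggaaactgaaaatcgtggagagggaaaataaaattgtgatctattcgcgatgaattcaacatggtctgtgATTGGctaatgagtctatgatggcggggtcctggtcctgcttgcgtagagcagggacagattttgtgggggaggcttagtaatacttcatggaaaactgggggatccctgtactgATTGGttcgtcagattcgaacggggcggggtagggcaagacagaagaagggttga
All CCAAT matches in these 4 promoters lay on the strand opposite to the gene, and no CCAAT overlapped the TCACNCCA of Hmgcs1. Ebp, called higher with the deposited scaling, carried CCAAT as did Lss, called lower.

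Recovered reads ran from 32555443 to 48409550 per library, and the 27 genes took 0.228% to 0.233% of them in controls and 0.216% to 0.231% in cKO. Eif5, the deleted gene, read 11964, 10551 and 11187 normalised read counts (reads divided by 1 size factor per library, as deposited) in control replicates 1 to 3 and 8548, 8982 and 9574 in cKO replicates 1 to 3 (log2 fold change -0.31, SE 0.0947, limma adjusted p = 0.0240). Its groups did not overlap, but with cKO replicate 1 or 2 left out the gene was not called (limma adjusted p = 0.133 and 0.0888), nor was it in limma without the intensity trend (adjusted p = 0.10). Of 17570 genes tested, 20.0% were called, meaning an adjusted p under 0.05 in limma, a linear model fitted to all genes: 1692 higher and 1829 lower, and 51.9% of the calls were lower. That share was 75.6% when values were scaled to library totals and 98.8% when they were scaled so that a list of Sertoli cell markers had the same mean log2 level in every library. The Sertoli scaling shifted the median of all genes, as a log2 fold change, from 0.01 to -0.35. In whole testis RNA, fewer cells of a type and less RNA per cell cannot be told apart.

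The median of the cholesterol genes lay near that of all genes with the deposited scaling. Rescaling the libraries moves both medians nearly alike. With the deposited scaling 1 gene rose, Ebp (log2 fold change 0.31, but -0.05 under the Sertoli scaling), and 2 fell, Lss and Stard4. That is 3 of 27 (11.1%), against 20.0% of all genes tested. Higher calls were 1 of 27, against 9.63% of all genes, and lower calls 2 of 27, against 10.4%. The median log2 fold change of the 27 genes was 0.01, the same as the median of all genes tested, and single genes ran from -0.43 to 0.31. Fold changes were above 0 for 15 genes and below 0 for 12 with the deposited scaling. Under the Sertoli scaling, which took the median of all genes to -0.35, they were below 0 for all 27. The share of all genes below 0 was not counted. Control and cKO values did not overlap for 6 genes (22.2%; all genes, 36.7%). Of these 5 were lower in cKO, Idi1, Sqle, Lss, Lbr and Stard4 (all genes, 18.4%), and 1 was higher, Ebp (all genes, 18.3%). At an unadjusted p under 0.05, limma had 7 of 27 genes, 6 of them lower, against 33.4% of all genes. With the deposited scaling, the 95% interval of the fold change lay wholly within 1.5-fold in either direction for 25 of 27 genes. The exceptions were Idi1 and Fdps, and the share of all genes within that limit was not counted. That limit does not hold under the Sertoli scaling, where the estimates themselves passed it for Mvd (-0.60), Idi1 (-0.74), Fdps (-0.78), Lss (-0.70), Hsd17b7 (-0.62) and Stard4 (-0.68). Under the Sertoli scaling the median of the 27 genes became -0.35, that of all genes -0.35, and 16 of the 27 genes were called lower, against 38.6% of all genes. Scaled to library totals 4 of the 27 were called lower, against 14.2%, and 0 higher. The difference between the median of the 27 genes and that of all genes lay between -0.03 and 0.06 under all 17 alternatives. These change the scaling, filter, pseudocount or tool or leave out 1 library. A scaling shifts all genes of a library nearly alike, so it can hardly move this difference. The fits without the trend and with the replicate block leave fold changes as they were. Both ends of the range came from leaving out control replicate 2 or 3.

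**Figure D1:**
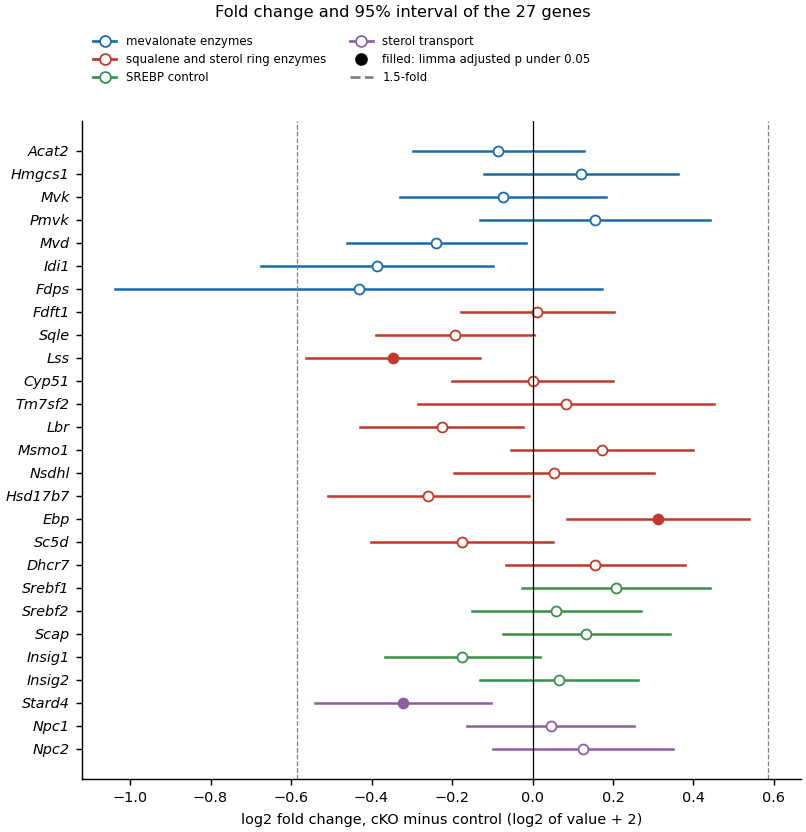
Log2 fold change of cKO against control (x axis) for each of the 27 genes, in pathway order and coloured by role, with bars for the 95% interval from limma and dashed lines at 1.5-fold. Filled points passed an adjusted p of 0.05 with the deposited scaling (Lss and Stard4 lower, Ebp higher). Under the Sertoli scaling Ebp was at -0.05 and the median of all genes at -0.35. The bars of Idi1 and Fdps alone cross a dashed line.

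In the mevalonate route 0 of 7 enzymes passed the test (all genes, 20.0%), and 5 of 7 had a fold change below 0 (median -0.09). At an unadjusted p under 0.05 limma had 2, Mvd and Idi1, both lower, and edgeR and DESeq2 each called 1, Idi1. Under the Sertoli scaling 5 of the 7 were called lower, against 38.6% of all genes. Idi1, which isomerises isopentenyl diphosphate so that the units can be joined, read 1001, 690.2 and 711 normalised read counts in control replicates 1 to 3 and 639, 637 and 540.4 in cKO replicates 1 to 3. All 3 cKO libraries lay below all 3 controls, and control replicate 1 stood well above the other controls. The difference missed the threshold (log2 fold change -0.39, SE 0.139, limma adjusted p = 0.0542; 95% interval -0.67 to -0.10). Idi1 was called lower under 8 of the 17 alternatives, among them edgeR (adjusted p = 0.0402), DESeq2 (adjusted p = 0.0352) and the fits that left out control replicate 2 or 3 (limma adjusted p = 0.0324 and 0.0413). With control replicate 1 left out, its log2 fold change was -0.21, against -0.39 with all libraries. Of the stretches of 31 bases in its longest GENCODE M21 transcript, 22.2% also occur on the same strand in other genes, mostly in Gm13502, so part of its reads may be shared. Mvd, the decarboxylase before it, read 1267, 1264 and 1119 normalised read counts in control replicates 1 to 3 and 1027, 1121 and 945 in cKO replicates 1 to 3. Its lowest control lay just below its highest cKO library (log2 fold change -0.24, SE 0.107, limma adjusted p = 0.121).

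Hmgcs1, the cytosolic HMG-CoA synthase at the head of the route, read 8282, 5647 and 7196 normalised read counts in control replicates 1 to 3 and 6971, 8169 and 7586 in cKO replicates 1 to 3. The groups overlapped and the controls alone spanned more than the difference (log2 fold change 0.12, SE 0.116, limma adjusted p = 0.507; 95% interval -0.12 to 0.36). Without control replicate 2, the lowest library, its log2 fold change was -0.03. The mevalonate kinases overlapped between groups as well. Mvk read 897 to 1048 in controls and 799.7 to 1116 in cKO (log2 fold change -0.07), and it was 0.03 without cKO replicate 3. Pmvk, the second kinase, read 348 to 450.3 in controls and 431 to 462 in cKO (log2 fold change 0.16).

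The first and the last enzymes of the route are hard to read by symbol. Acat2, the cytosolic thiolase that joins acetyl-CoA units, had 50.5% of the 31-base stretches of its longest GENCODE M21 transcript in common with Acat3, a closely related gene, and 15.3% with Tcp1 on the other strand. Fdps, the farnesyl diphosphate synthase, had 89.7% of its stretches in common with 8 other genes, chiefly Gm43738. How the authors' counting treated reads that fit several genes is not given in the sources used here, so both values are uncertain. Fdps read 93.2, 70.8 and 105 normalised read counts in control replicates 1 to 3 and 87.8, 77.9 and 40.0 in cKO replicates 1 to 3, the lowest level of the 27 genes (log2 fold change -0.43, SE 0.291, limma adjusted p = 0.320; 95% interval -1.04 to 0.17). cKO replicate 3 stood well below the other 5 libraries, and without it the log2 fold change was -0.09. Acat2 read 1740.1 to 1999 in controls and 1563 to 1889 in cKO (log2 fold change -0.09), overlapping ranges.

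Lss, lanosterol synthase, which closes the sterol ring, fell. It read 1597, 1359 and 1307 normalised read counts in control replicates 1 to 3 and 1104, 1107 and 1128 in cKO replicates 1 to 3. The cKO libraries were nearly equal to each other and all lay below all controls. The means were 1421 ± 154 for control libraries and 1113 ± 13.2 for cKO libraries (both SD, n = 3; log2 fold change -0.35, SE 0.104, limma adjusted p = 0.0239). The 95% interval of the fold change, -0.56 to -0.13, leaves out a fall of 1.5-fold with the deposited scaling, while under the Sertoli scaling the estimate itself was -0.70. The direction held under all 17 alternatives (-0.70 to -0.26) and the call under 12. Changing only the filter, the trend or the replicate block leaves the fold change as it was, so those alternatives bear on the call alone. With control replicate 1 left out, limma's adjusted p was 0.0890. With cKO replicate 1, 2 or 3 left out it was 0.0774, 0.0776 or 0.0607, so 4 of the 6 libraries were each needed for the call. Nor was it called in limma without the intensity trend (adjusted p = 0.0997).

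Ebp, the sterol isomerase late in the chain, was the 1 gene called higher with the deposited scaling. Its sign turned under the Sertoli scaling, which took the median of all genes to -0.35. Ebp read 1309.8, 1479.6 and 1779 normalised read counts in control replicates 1 to 3 and 1935, 1856 and 1837 in cKO replicates 1 to 3. The lowest cKO library lay just above the highest control, and the controls spread more widely than the cKO libraries. The means were 1523 ± 238 for control libraries and 1876 ± 52.2 for cKO libraries (both SD, n = 3; log2 fold change 0.31, SE 0.109, limma adjusted p = 0.0476, 95% interval 0.09 to 0.54). The gene stayed called under 6 of the 17 alternatives. Leaving out control replicate 1 or 2 took limma's adjusted p to 0.173 or 0.102, and leaving out cKO replicate 1, 2 or 3 took it to 0.144, 0.106 or 0.0955. edgeR did not call it (adjusted p = 0.0561) and DESeq2 did (adjusted p = 0.0466). Scaled to library totals its log2 fold change was 0.23 (adjusted p = 0.160), and under the Sertoli scaling -0.05 (adjusted p = 0.807).

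**Figure D2:**
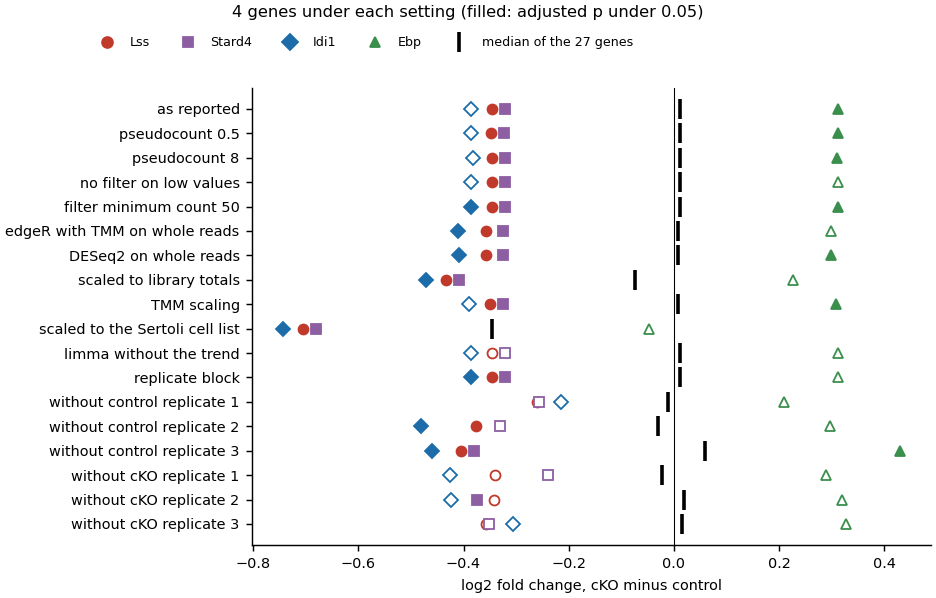
Log2 fold change (x axis) of Lss, Stard4, Idi1 and Ebp and the median of the 27 genes (black bars) as reported and under each of the 17 alternatives (y axis), with filled symbols where the adjusted p was under 0.05. Lss, Stard4 and Idi1 stay to the left of 0 in every setting. A change of the filter, the trend or the replicate block alone leaves fold changes as they were. Ebp lies at -0.05 under the Sertoli scaling, where the median of all genes was -0.35, and right of 0 in the others.

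From squalene onward 2 of 12 enzymes, Lss and Ebp, passed limma's test (all genes, 20.0%). edgeR called 1 of the 12, Lss, and DESeq2 called 2, Lss and Ebp, against 19.5% and 25.5% of all genes. Under the Sertoli scaling 7 of the 12 were called lower, against 38.6% of all genes. At an unadjusted p under 0.05 limma had 4 of 12 (all genes, 33.4%): Lss, Lbr and Hsd17b7, lower, and Ebp, higher. Sqle, squalene epoxidase, a rate-limiting step, read 3032, 2791 and 3094 normalised read counts in control replicates 1 to 3 and 2712, 2371 and 2729.9 in cKO replicates 1 to 3. Its groups did not overlap, by a gap smaller than the spread within either (log2 fold change -0.19, SE 0.0945, limma adjusted p = 0.159; 95% interval -0.39 to 0.0043). Lbr, the lamin B receptor, which is both a protein of the nuclear envelope and a sterol reductase, read 2586, 2460.5 and 2582 normalised read counts in control replicates 1 to 3 and 2392, 2210.1 and 1945 in cKO replicates 1 to 3. Here too all cKO libraries were lower (log2 fold change -0.23, SE 0.0972, limma adjusted p = 0.107), and the gene was called when values were scaled to library totals (adjusted p = 0.0407). Tm7sf2, which encodes the other enzyme of the same reduction, was far less abundant, at 236 to 330.4 in controls and 240.1 to 371 in cKO, and its interval was wide (-0.28 to 0.45). Hsd17b7, the keto-reductase of the demethylation complex, read 1066, 848 and 1057 normalised read counts in control replicates 1 to 3 and 920.4, 793 and 762 in cKO replicates 1 to 3. cKO replicate 1 lay among the controls (log2 fold change -0.26, SE 0.120, limma adjusted p = 0.133), and the gene was called lower without control replicate 2 (adjusted p = 0.0453).

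The demethylases next to Hsd17b7 in the chain did not pass the test either. With the deposited scaling Cyp51, which removes the first methyl group of lanosterol, had nearly equal means: 2467 ± 253 for control libraries and 2459 ± 58.2 for cKO libraries (both SD, n = 3), with a 95% interval of -0.20 to 0.20 for the log2 fold change. Under the Sertoli scaling Cyp51 was called lower (-0.36, limma adjusted p = 0.0267). Msmo1, the methyl sterol oxidase, read 2877, 2590.1 and 3551 normalised read counts in control replicates 1 to 3 and 3517, 3077 and 3503 in cKO replicates 1 to 3. Control replicate 3 lay above all cKO libraries (log2 fold change 0.17, SE 0.109, limma adjusted p = 0.280), and without that library Msmo1 was called higher with the deposited scaling (log2 fold change 0.30, adjusted p = 0.0492), while under the Sertoli scaling with all libraries it was -0.19. Nsdhl, the dehydrogenase of the same complex, had a log2 fold change of 0.05 (95% interval -0.19 to 0.30), and of -0.30 under the Sertoli scaling. Fdft1, squalene synthase, had means of 2646 ± 129 for control libraries and 2667 ± 114 for cKO libraries (both SD, n = 3), a log2 fold change of -0.35 under the Sertoli scaling, and with the deposited scaling a 95% interval of -0.18 to 0.20. Of its stretches 20.3% also lie in Ctsb on the other strand, and without a stated strand setting such reads cannot be told apart. Separately, 16.5% lie on the same strand in Gm6781, so its value is uncertain whatever that setting was.

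The genes of the last steps did not pass the test. Sc5d, the desaturase, had a log2 fold change of -0.18 (95% interval -0.40 to 0.05). Dhcr7, the final reductase of one branch, read 4262, 4575 and 5414 normalised read counts in control replicates 1 to 3 and 6050.1, 4922 and 4905 in cKO replicates 1 to 3. cKO replicate 1 was the highest library and the others overlapped with the controls (log2 fold change 0.16, SE 0.107, limma adjusted p = 0.327).

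In SREBP control 0 of 5 genes passed limma's test (all genes, 20.0%), 0 had an unadjusted p under 0.05 (all genes, 33.4%), and edgeR and DESeq2 called 0. Under the Sertoli scaling 2 of the 5 were called lower, against 38.6% of all genes: Srebf2 (-0.30, limma adjusted p = 0.0426) and Insig1 (-0.53, limma adjusted p = 0.000823). The groups overlapped for all 5. Srebf2, the factor that chiefly drives cholesterol genes, read 9721, 11422 and 10531 normalised read counts in control replicates 1 to 3 and 11883, 11200.0 and 9942 in cKO replicates 1 to 3. The ranges were nearly the same (log2 fold change 0.06, SE 0.10, limma adjusted p = 0.727; 95% interval -0.15 to 0.27). Srebf1, whose products chiefly drive fatty acid genes, read 3699, 5254 and 4859 normalised read counts in control replicates 1 to 3 and 5627, 5188 and 4981 in cKO replicates 1 to 3. Control replicate 1 was low, and the other 5 libraries lay together (log2 fold change 0.21, SE 0.112, limma adjusted p = 0.201). Without that library the log2 fold change was 0.06. Scap, the escort, had a log2 fold change of 0.13 (95% interval -0.07 to 0.34).

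Neither INSIG gene passed the test with the deposited scaling. Insig1, itself an SREBP target, read 5302, 5437 and 5972 normalised read counts in control replicates 1 to 3 and 5327, 4734 and 4749.7 in cKO replicates 1 to 3. cKO replicates 2 and 3 lay below all controls and cKO replicate 1 lay just above the lowest control (log2 fold change -0.17, SE 0.0926, limma adjusted p = 0.195; 95% interval -0.37 to 0.02). Insig2, which is not under the same SREBP feedback, read 3511, 3279 and 3844 normalised read counts in control replicates 1 to 3 and 3836, 3436 and 3857 in cKO replicates 1 to 3. Its groups overlapped (log2 fold change 0.07, SE 0.0943, limma adjusted p = 0.667). These are messenger RNA levels, and cutting of the SREBP proteins was not measured.

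Of the transport genes Stard4, a cytosolic sterol carrier and SREBP target, fell. It read 1929, 1739.8 and 1623 normalised read counts in control replicates 1 to 3 and 1256, 1515 and 1465 in cKO replicates 1 to 3. All cKO libraries lay below all controls, and cKO replicate 1 was the lowest. The means were 1764 ± 154 for control libraries and 1412 ± 137 for cKO libraries (both SD, n = 3; log2 fold change -0.32, SE 0.105, limma adjusted p = 0.0352, 95% interval -0.54 to -0.10). The direction held under all 17 alternatives (-0.68 to -0.24) and the call under 12. As for Lss, the alternatives that change only the filter, the trend or the replicate block could not alter the direction. Leaving out control replicate 1 or 2 took limma's adjusted p to 0.107 or 0.0601, and leaving out cKO replicate 1 or 3 took it to 0.196 or 0.0636. In limma without the intensity trend it was not called either (adjusted p = 0.141). Npc1 and Npc2, the lysosomal pair that releases cholesterol taken up from outside, kept overlapping ranges. Npc1 had a log2 fold change of 0.05 (95% interval -0.16 to 0.25), and Npc2 of 0.13 (95% interval -0.10 to 0.35).

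**Figure D3:**
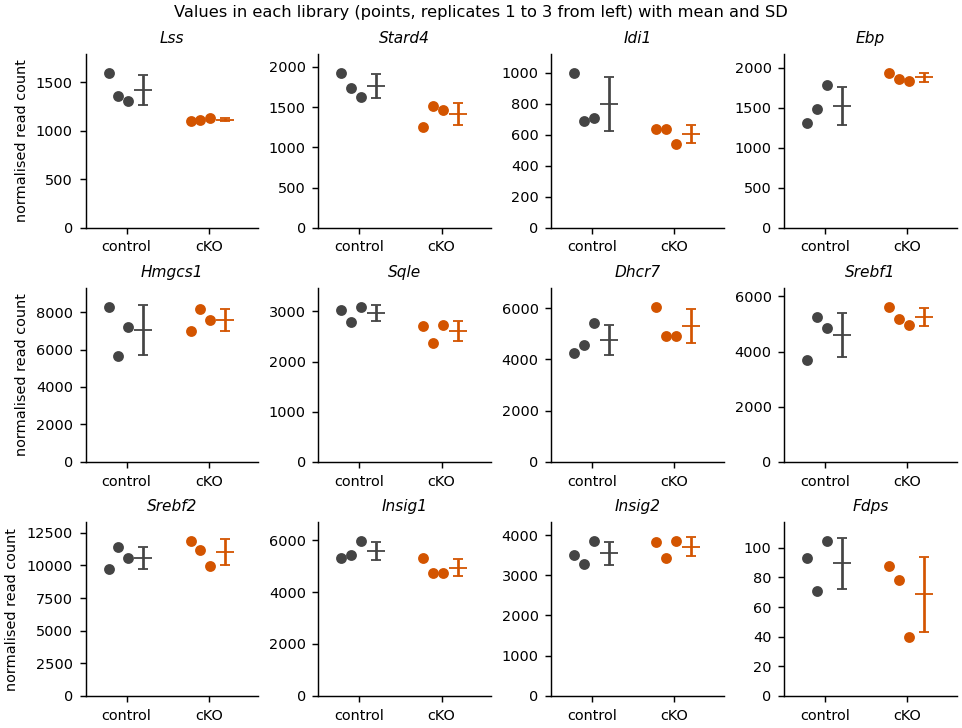
Normalised read counts (y axis, from 0) of 12 of the 27 genes in each library, with the 3 replicates of each group as points in order and the mean and SD beside them. Lss, Stard4, Idi1 and Sqle lie lower in all cKO libraries, Ebp higher with this scaling, and the groups of the other 7 overlap. Under the Sertoli scaling the log2 fold change of Ebp was -0.05 and the median of all genes -0.35.

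Levels were compared between genes per kilobase of the longest GENCODE M21 transcript, an approximation since the isoforms in use are not known. Npc2 had the highest mean, at 2859 ± 385 normalised reads per kilobase in controls (SD, n = 3). Scap (2338 ± 233), Srebf2 (2079.5 ± 168), Insig1 (2065 ± 131) and Hmgcs1 (2033 ± 382) followed. Npc2 and Scap overlapped within 1 SD of their means, and Scap and the 3 genes after it did too. Among the enzymes after Hmgcs1 the highest were Dhcr7 (1688 ± 212) and Msmo1 (1471 ± 241), again within each other's spread. The lowest were Hsd17b7 (215 ± 26.7), Tm7sf2 (187 ± 31.7) and Fdps (64.8 ± 12.5), the last uncertain because of its shared sequence. The order in cKO was similar: Npc2 and Scap were again first and second, Fdps last, and Hmgcs1 moved from rank 5 to 3 and Insig1 from 4 to 6. Of the 27 transcripts 12 shared no stretch of 31 bases with another gene, Ebp and Stard4 among them, and 8 shared over 10% in all: Acat2, Fdps, Idi1, Fdft1, Hmgcs1, Lbr, Scap and Npc1. In Hmgcs1, Lbr, Scap and Npc1 the shared stretches lay mainly on the other strand, and in Lss these were 5.78% of the transcript.

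**Figure D4:**
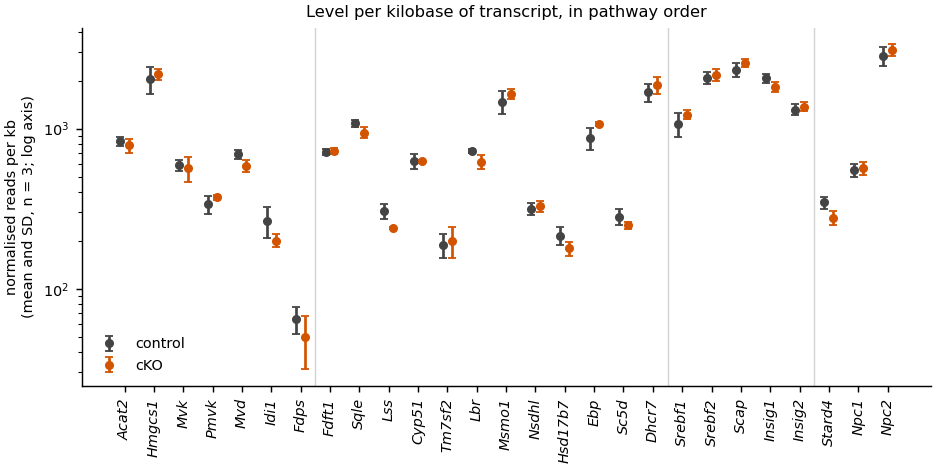
Normalised reads per kilobase of transcript (y axis, log scale; mean and SD, n = 3 per group) for the 27 genes in pathway order, with grey lines between the roles. Control and cKO lie close together for each gene compared with the spread between genes, and Fdps stands lowest.

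The lists of lipid genes around the pathway are given with the deposited scaling, where 9.63% of all genes tested were called higher and 10.4% lower. Counts under the other scalings follow each list, with 14.2% of all genes lower by library totals and 38.6% under the Sertoli scaling. Under the Sertoli scaling 0 genes of any of these 7 lists were called higher by limma, and the median of each list was below 0 (-0.33 to -0.14). limma without the intensity trend called 5.45% of all genes. Of the genes of these lists named below it called only Acss2, Pnpla3, Elovl6 and Pdss1 (adjusted p = 0.0447, 0.0254, 0.0427 and 0.0210). In fatty acid synthesis and desaturation, the other arm of SREBP targets, 6 of 17 genes tested rose and 3 fell (median log2 fold change 0.07; 3 higher and 3 lower by library totals, 0 and 6 under the Sertoli scaling). Scd2, a desaturase (0.51), and Elovl6, an elongase (0.42), were among those that rose (0.15 and 0.06 under the Sertoli scaling). Acss2, which makes cytosolic acetyl-CoA from acetate, fell, its mean normalised read count going from 1233 ± 191 to 749 ± 62.0 (SD, n = 3 in each group; log2 fold change -0.71, SE 0.120, limma adjusted p = 0.00035). The others that fell were the lipid droplet gene Pnpla3 (-1.96; 28.9 ± 10.0 to 5.79 ± 1.95 normalised read counts) and Mid1ip1 (-0.27), which promotes acetyl-CoA carboxylase. Pnpla3 was not called without control replicate 3 (limma adjusted p = 0.0592). Mid1ip1 had a limma adjusted p of 0.0849 or 0.0738 when control replicate 1 or 3 was left out, and of 0.217, 0.0564 or 0.121 when cKO replicate 1, 2 or 3 was.

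In SREBP processing and the sterol-regulated degradation of enzymes 4 of 16 genes rose and 0 fell (median 0.19; 1 higher and 1 lower by library totals, 0 and 2 under the Sertoli scaling). Rnf145, a sterol-responsive ubiquitin ligase gene, had the smallest adjusted p of them (log2 fold change 0.40, SE 0.0937, limma adjusted p = 0.00497; 0.04 under the Sertoli scaling, not called). Of the electron donors and scaffolds of sterol synthesis Pgrmc1 (0.40) and Cyb5a, a cytochrome that passes electrons to sterol oxidases (0.34; -0.02 under the Sertoli scaling), rose, 2 of 7 (1 higher and 0 lower by library totals, 0 and 2 under the Sertoli scaling). Neither was called without cKO replicate 3 (limma adjusted p = 0.0634 and 0.0843). In the non-sterol branches from farnesyl diphosphate 0 of 15 rose and 2 fell (0 higher and 3 lower by library totals, 0 and 8 under the Sertoli scaling): Pdss1, of ubiquinone side chain synthesis (log2 fold change -0.75, SE 0.159, limma adjusted p = 0.00251), and Rabggta, of Rab prenylation (log2 fold change -0.52, SE 0.123, limma adjusted p = 0.00532).

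Of 13 genes of cholesterol ester storage and release 3 rose and 0 fell (median 0.22; 1 higher and 0 lower by library totals, 0 and 0 under the Sertoli scaling): the lipid droplet coat gene Plin2 (0.48), the lysosomal lipase gene Lipa (0.34; -0.01 under the Sertoli scaling) and Soat1, which esterifies cholesterol (0.31; -0.04 under the Sertoli scaling). Lipa had a limma adjusted p of 0.111 when control replicate 1 was left out, and of 0.0951 or 0.127 when cKO replicate 1 or 3 was. For Soat1 these were 0.128 with control replicate 2 left out, and 0.187 or 0.0778 with cKO replicate 1 or 3 left out. In sterol uptake and movement between membranes 4 of 22 rose and 0 fell (median 0.14; 0 higher and 1 lower by library totals, 0 and 6 under the Sertoli scaling), with the smallest adjusted p for Osbpl1a, an oxysterol-binding protein gene (log2 fold change 0.37, SE 0.0949, limma adjusted p = 0.00882; adjusted p = 0.0689 without cKO replicate 3). Among LXR and efflux genes 2 of 16 rose, Cyp7b1 (0.58) and the exporter gene Abcg1 (0.29; -0.07 under the Sertoli scaling), and 1 fell, the transporter gene Abca7 (-0.52). For this list the counts were 1 higher and 2 lower by library totals, 0 and 5 under the Sertoli scaling, and with the deposited scaling 2 of 16 lies near the 9.63% of all genes called higher and 1 of 16 below the 10.4% called lower. Cyp7b1, an oxysterol hydroxylase gene, was not called without cKO replicate 1 (limma adjusted p = 0.0986). Abcg1 was not called once any 1 library was left out (limma adjusted p = 0.0583, 0.0540, 0.0898, 0.0859, 0.157 and 0.137, for control replicates 1 to 3 and then cKO replicates 1 to 3).

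Markers of cell types in the organ differed between the groups, and their values with the deposited scaling stand here beside those of the 27 genes. Of 18 meiotic prophase markers 17 were called lower (median log2 fold change -1.36), with summed normalised read counts of 26551 to 30025 in controls and 11574 to 13172 in cKO. Of 10 differentiating spermatogonia markers 9 were called lower (summed counts 28112 to 29073 in controls and 14113 to 16358 in cKO), and of 10 pan germ cell markers 8 (summed counts 37800 to 46549 in controls and 25509 to 27833 in cKO). These lists had medians below 0 under the library total and Sertoli scalings as well. Of 12 undifferentiated spermatogonia markers 5 were called higher (summed counts 8678 to 9903 in controls and 10345 to 11288 in cKO; 3 higher and 1 lower by library totals, 1 and 2 under the Sertoli scaling; median 0.30, but -0.06 under the Sertoli scaling).

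Among somatic lists, of 20 Sertoli markers 10 were called higher and 1 lower (summed counts 302865 to 444063 in controls and 480209 to 553983 in cKO; 9 higher and 1 lower by library totals, 3 and 1 under the Sertoli scaling). The counts under the Sertoli scaling are no separate check for this list, since that scaling equalises the mean log2 level of these same markers. Of 12 Leydig markers, the steroid-producing cells of the testis, 7 were called higher and 0 lower (summed counts 15864 to 21005 in controls and 23858 to 27972 in cKO; median 0.46, and 0.10 under the Sertoli scaling, with 6 higher and 1 lower by library totals, 1 and 1 under the Sertoli scaling). Calls in macrophage markers were 6 higher and 0 lower of 10 (summed counts 8704 to 10997 in controls and 10699 to 12886 in cKO; 0 higher and 0 lower by library totals, 0 and 0 under the Sertoli scaling). Peritubular myoid markers had 0 higher and 2 lower of 8 (summed counts 29616 to 32010 in controls and 27053 to 28764 in cKO; 0 higher and 2 lower by library totals, 0 and 7 under the Sertoli scaling). Fibroblast and stroma markers had 3 higher and 0 lower of 8 (summed counts 95641 to 115485 in controls and 108825 to 115076 in cKO; 3 higher and 0 lower by library totals, 0 and 2 under the Sertoli scaling). Endothelium markers had 1 higher and 1 lower of 8 (summed counts 7741 to 9491 in controls and 9122 to 10084 in cKO; 0 higher and 1 lower by library totals, 0 and 4 under the Sertoli scaling). Erythroid markers had 2 higher and 0 lower of 7 (summed counts 3593 to 4638 in controls and 4736 to 11800 in cKO; 2 higher and 0 lower by library totals, 0 and 0 under the Sertoli scaling). Fat cell markers had 0 higher and 0 lower of 6 (summed counts 430 to 918 in controls and 618 to 779 in cKO; 0 higher and 1 lower by library totals, 0 and 2 under the Sertoli scaling). Adrenal-like steroid cell markers had 1 higher and 0 lower of 4 (summed counts 5658 to 5730 in controls and 7773 to 8414 in cKO; 1 higher and 0 lower by library totals, 0 and 0 under the Sertoli scaling). No matched marker was at 0 in all libraries. The part of these differences in the values of the 27 genes was not tested.

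**Figure D5:**
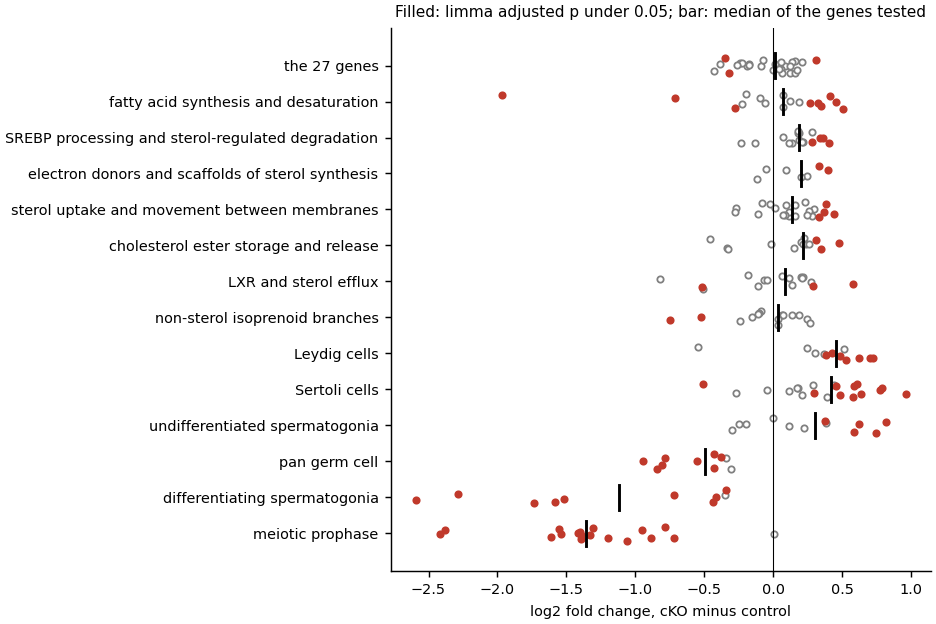
Log2 fold change of cKO against control (x axis) for each tested gene (points; filled where the limma adjusted p was under 0.05) of the 27 genes, 7 lists of lipid genes and 6 lists of cell type markers (y axis), with the deposited scaling, with a bar at each median. The 27 genes lie around 0 (median 0.01), the Leydig and Sertoli markers to the right (0.46 and 0.42, or 0.10 and 0.06 under the Sertoli scaling) and the meiotic markers to the left (-1.36). The 0.06 follows from that scaling, which equalises the mean log2 level of the Sertoli markers.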

How the data were processed

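RNA-seq of whole testes was measured in 3 control and 3 cKO libraries, grouped by sample title. The authors deposited 1 table of normalised signal per gene: each column had 100% of its values at whole multiples of a single step (tolerance 1e-06), and the inverse of the step equalled the recomputed median-of-ratios size factor (0.825 to 1.35), so each value is a read count divided by 1 factor. These values are called normalised read counts. The submitters' processing notes list StringTie 1.3.1 and RSEM without saying what each did. Which aligner, genome build, annotation and strand setting were used is not given in the sources used here. Of recovered counts from 1 to 20, 78.1% were even, so a low count may not be a number of single events. No libraries were duplicates (chi-square per degree of freedom at least 10.2).

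limma 3.58.1 with an intensity trend was run in R 4.3.3 on log2(value + 2), 2-sided, with no covariate, on 17570 of 22219 genes that passed edgeR's filterByExpr (minimum count 10). P-values were adjusted over all genes by Benjamini-Hochberg and called under 0.05. Fold changes on this scale understate changes of low genes. edgeR 4.0.16 (quasi-likelihood) and DESeq2 1.42.0 on recovered reads were alternatives, and edgeR called 1575 genes higher and 1857 lower. The test was also run on counts simulated with the size factors of these libraries and a small set of genes changed. That setting differs from these data, where 20.0% of genes were called, and it does not bear on the choice of scaling. The members and lists were chosen with earlier results of these data known. All 27 members are named. From the lists of lipid genes at most 3 called genes by smallest adjusted p are named, and all called genes where 3 or fewer moved in a direction. Calls in the cell type marker lists are given as counts only. Of the other listed genes 2 were not matched. Transcripts for length and shared sequence came from GENCODE M21 and promoters from RefSeq (GRCm38.p6), matched by gene symbol.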

Additional observations from a re-analysis of the deposited data

How the results depend on the processing

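As reported, 1692 genes were higher and 1829 lower, and 1 and 2 of the 27. Both other pseudocounts, DESeq2, the filter at a minimum count of 50 and TMM scaling kept these counts within 1.5 times. Members called higher were 0 without a filter, 0 by edgeR and 0 with the replicate block. Scaled to library totals, 806 genes were higher, 0 members higher and 4 lower, and the median of the members was -0.074. Scaled to the Sertoli cell list, 79 genes were higher and 6784 lower, 0 members higher and 16 lower, with a median of -0.35. limma without the trend called 271 genes higher and 686 lower, and 0 and 0 members. The cause was not tested. Leaving out single libraries, genes called higher numbered 918 to 1747 (918, 1008 and 932 without cKO replicates 1 to 3 in turn), members called higher 0 to 2 and members called lower 0 to 3, from fewer samples.

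Log2 fold changes of the genes whose sign turned follow, of which Ebp, Cyb5a, Lipa, Soat1 and Abcg1 had been called. Cyp51 was -0.0077 by edgeR, -0.0073 by DESeq2 and -0.0031 with TMM scaling. With library totals: Fdft1 -0.074, Cyp51 -0.086, Tm7sf2 -0.0023, Nsdhl -0.032, Srebf2 -0.027, Insig2 -0.019, Npc1 -0.041. With the Sertoli scaling: Hmgcs1 -0.24, Pmvk -0.20, Fdft1 -0.35, Cyp51 -0.36, Tm7sf2 -0.27, Msmo1 -0.19, Nsdhl -0.30, Ebp -0.047, Dhcr7 -0.20, Srebf1 -0.15, Srebf2 -0.30, Scap -0.22, Insig2 -0.29, Npc1 -0.31, Npc2 -0.23, Cyb5a -0.023, Lipa -0.014, Soat1 -0.044, Abcg1 -0.070. Without single libraries the ranges were Acat2 -0.14 to 0.0014, Cyp51 -0.066 to 0.078, Fdft1 -0.029 to 0.038, Hmgcs1 -0.030 to 0.25, Mvk -0.21 to 0.035, Npc1 -0.030 to 0.12, Nsdhl -0.021 to 0.12, Tm7sf2 -0.083 to 0.23. The replicate numbers do not pair the libraries: deviations from the group means correlated at -0.04, -0.0023 and 0.06 for numbers 1, 2 and 3, and only those with number 3 correlated best with their own number. With the replicate block 1535 genes were higher and 1771 lower, Idi1 was called (adjusted p = 0.0411) and Ebp was not (adjusted p = 0.0545). Fdps, at 40.0 to 104.7 normalised read counts, had the widest interval of the 27 genes, and the part of depth was not tested.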

Other observations

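Ratios between genes of the same library do not depend on how libraries are scaled. These pairs were chosen after the values were seen, so the ratios are a description with no test. The log2 ratio of Ebp to Lss, a late against an early step of the sterol chain, was -0.29, 0.12 and 0.44 in control replicates 1 to 3 and 0.81, 0.75 and 0.70 in cKO replicates 1 to 3. The controls were spread over a wider range than the cKO libraries, and all cKO libraries lay above all controls. That separation was bound to appear, since Ebp was higher and Lss lower in all cKO libraries than in all controls. The log2 ratio of Insig1 to Insig2 was 0.59, 0.73 and 0.64 in controls and 0.47, 0.46 and 0.30 in cKO, all cKO libraries below all controls. The ratios of Ebp to Stard4, Ebp to Idi1, Dhcr7 to Lss and Srebf1 to Srebf2 were worked out too, and their groups did not overlap either. The share of all gene pairs without overlap was not counted.

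Control replicate 1 stood at an end of the range for many of the 27 genes: it was the highest of the 6 libraries for 9 genes and the lowest for 9, cKO replicate 1 was the highest for 10 and the lowest for 2, and cKO replicate 2 was the highest for 0 and the lowest for 3. Among the high values of control replicate 1 were Hmgcs1, Idi1, Lss and Stard4, and among its low values Srebf1, Scap, Ebp and Dhcr7. The median coefficient of variation of the 27 genes was 10.2% in controls and 7.91% in cKO (n = 3 per group). Neither these values nor the counts of highest and lowest libraries were worked out for all genes. Whether they are particular to the 27 genes was not tested.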
